A study of Homo sapiens with 6 samples.

Results

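The proteasome subunit genes are 32 genes that encode subunits of the human proteasome: 7 core alpha genes, 7 core beta genes, 6 ATPase genes and 12 non-ATPase genes of the regulatory particle. They were chosen by name, and all 32 were found in the gene table. SEM1, a small lid subunit, is not among the 32 and is given with the other genes of the pathway. A USP39 site was counted for a gene where the central base of the site lay within the gene's span, introns included, on the strand that carried most of the gene's sites. By this rule 129 of the 34781 sites in the list belonged to these genes, or 0.371% (exact 95% binomial interval 0.310% to 0.441%). This interval, like those below, covers counting error only and treats sites as independent, which sites of 1 gene are not. The sites came from iCLIP2 on wild-type HEK293T, an established line derived from human embryonic kidney. Living cells were exposed to 254 nm UV light, which joins proteins to the RNA they touch, and RNA bound to USP39 was recovered with an antibody against that protein. The 2 groups of the study are a low and a high membrane region cut above the size of the protein, with 3 libraries each, all of them from irradiated cells. What was analysed is 1 merged site list, filed under the low region, replicate 1, in which every site is 5 nt wide (a control that received no UV is not analysed here).

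The proteasome degrades proteins that carry ubiquitin chains. Its barrel-shaped core is built of outer rings of alpha subunits, which form the gate, and inner rings of beta subunits, some of which carry the protease activity. The regulatory particle caps the core: a ring of ATPases unfolds the substrate, and the non-ATPase subunits bind ubiquitin, remove it and hold the particle together. USP39, whose sites are described here, is a splicing protein of the tri-snRNP that carries a ubiquitin-protease-like domain and is known as a catalytically inactive member of that family.

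The list has no value per library, so no count below has a replicate error, its read depth is unknown, and no test between groups of genes was made. The score deposited for each site is 0 throughout, so all sites weigh the same. RNA abundance was not measured, and its part in every count was not tested; the labelled cell type could not be set against marker levels for the same reason. In the 23 members that had a site and an annotated strand in the promoter table, the strand with most sites was the annotated one in 23.

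The sequences at 5 member sites could be read from the promoter table, which holds 250 bases before and 50 bases from each listed transcript start, and they are shown because they give the bases under the sites themselves. The first 3 lie just after the start of PSMA4, PSMB2 and PSMB4, and the other 2 lie inside PSMB7 and PSMD3, where the window of a neighbouring LOC gene covers the site. Each runs 5′ to 3′ on the strand of the site (RefSeq, GRCh38.p14), with the 5 bases of the site in capitals.
PSMA4 (chr15:78540471-78540493, plus strand): gtggtggttTATTCttccgtgga
PSMB2 (chr1:35641505-35641527, minus strand): caatcttcgCTCTGaggtgctgt
PSMB4 (chr1:151399588-151399610, plus strand): atggaagcgTTTTTggggtcgcg
PSMB7 (chr9:124384603-124384625, minus strand): tgaagataaGTTTAggccagaca
PSMD3 (chr17:39995043-39995065, plus strand): catgccctaTTTCCttctgactc
The central base was T, read as U in RNA, in 4 of the 5 sites and C in the site of PSMB2. T made up 16 of the 25 bases in capitals. The PSMB4 site was a run of T in its whole width. Over all 460 sites in the first 50 bases of a listed start of a protein-coding gene, the 3 start sites above among them, T stood at 75.4% of the centres and C at 11.1%. T made up 24.9% of all bases in the 359 such stretches that held a site. UV crosslinking is known to favour uridine, and its part in these shares was not tested.

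Sites were found in most proteasome genes, and more of them in the genes of the core than in those of the regulatory particle. At least 1 site was counted in 28 of the 32 genes (87.5%), against 23.1% of all 20033 nuclear protein-coding genes under the same rule. All 7 core alpha and all 7 core beta genes had a site, as did 4 of 6 ATPase genes and 10 of 12 non-ATPase genes. The 4 genes without a site were PSMC1, PSMC2, PSMD1 and PSMD13. At least 3 sites were counted in 19 members (12.8% of all protein-coding genes), at least 5 in 12 members (8.89% of all) and at least 10 in 3 members (4.61% of all). Of the 12 genes with 5 or more sites, 11 were core genes and 1, PSMD8, was a regulatory gene.

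The core genes held 94 of the 129 sites (72.9%) on 47.1% of the summed span of the members. Core alpha genes held 48 sites and core beta genes 46, with medians of 5 and 7 sites per gene. The ATPase genes held 7 sites and the non-ATPase genes 28, with medians of 1 and 1.5 per gene. Among all protein-coding genes the median was 0, and among the 4625 with a site it was 3, while the 28 members with a site had a median of 3.5. The ranges of the classes overlapped, from 3 to 17 in core alpha, 2 to 11 in core beta, 0 to 3 in the ATPases and 0 to 8 in the non-ATPases. No ATPase gene passed the lowest core alpha gene, PSMA2, which had 3 sites.

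**Figure D1:**
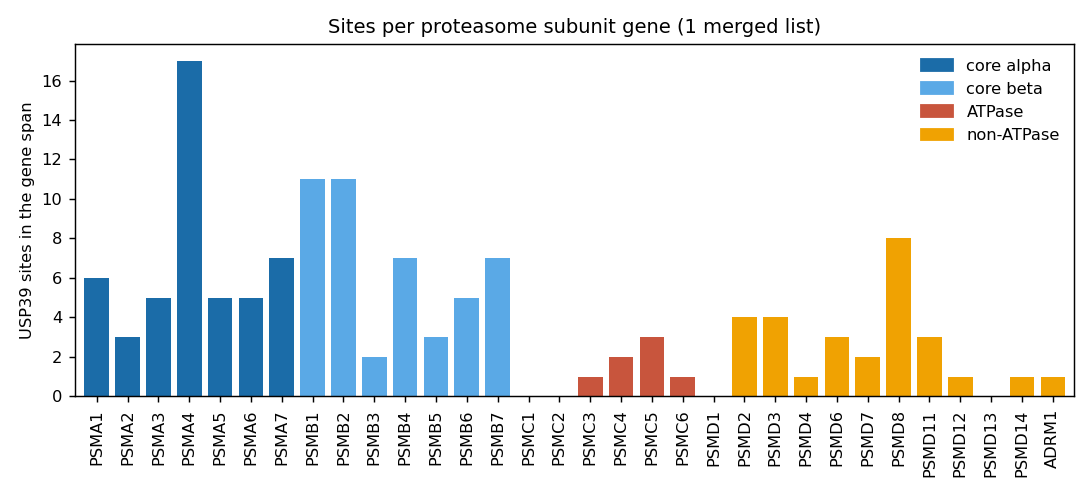
Number of USP39 sites (vertical axis) in each of the 32 proteasome subunit genes (horizontal axis), coloured by subunit class; each bar is 1 count from 1 merged list, so it has no error bar. PSMA4 stands highest with 17 sites, PSMB1 and PSMB2 follow with 11 each, and 4 genes of the regulatory particle are at 0.

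Per kb of gene span the same order held between core and regulatory genes. The core genes had 0.227 sites per kb and the regulatory genes 0.0752, a ratio of 3.02. The summed regulatory span of 465.6 kb includes PSMD1, with 0 sites in 115.96 kb, and PSMD14, with 1 site in 103.3 kb. Both lower the pooled regulatory value, and a ratio without them was not computed. By the median gene, a choice made after seeing the data, core genes had 0.229 and regulatory genes 0.104, a ratio of 2.19. Core beta genes had 0.311 sites per kb, core alpha genes 0.180, ATPase genes 0.0824 and non-ATPase genes 0.0736, and all nuclear protein-coding genes together 0.0256. In these pooled values the order of the alpha and beta classes rested on 1 long span: the span of PSMA1 is 138.8 kb, while all 6 of its sites lay in the 15.5 kb from its listed transcript start to its end. With every span cut at its most upstream listed start, a choice made after seeing the data, core alpha genes had 0.371 sites per kb, above the 0.311 of core beta genes. The median core beta gene had 0.320 sites per kb and the median core alpha gene 0.184, or 0.199 with cut spans, so by the median gene the order held. For the regulatory classes the order turned: the median non-ATPase gene had 0.123 sites per kb and the median ATPase gene 0.0886. Across the 32 members the number of sites and the span length had a Spearman's rho of -0.08, given as a description over genes of 1 list.

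**Figure D2:**
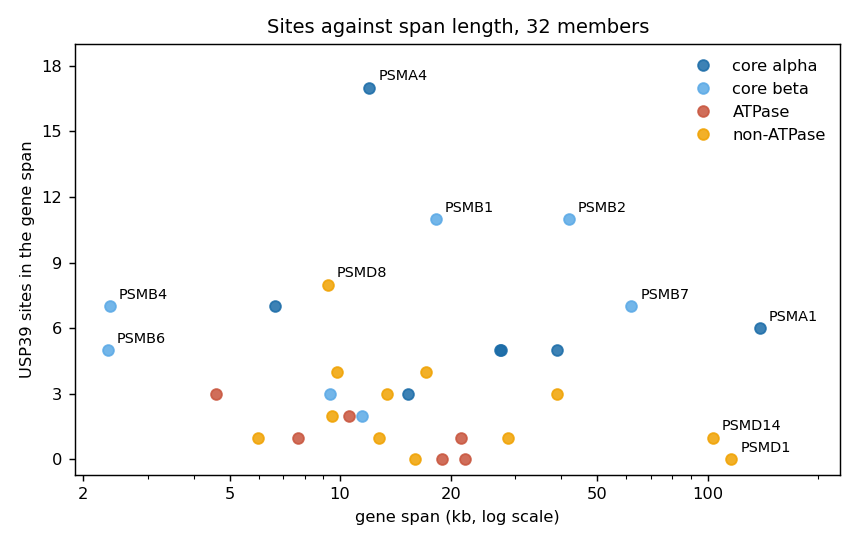
Number of USP39 sites (vertical axis) against the gene span in kb (horizontal axis, log scale) for the 32 proteasome subunit genes, coloured by class. Genes of like length differ: PSMB1, at 18.19 kb, has 11 sites, while PSMC1, at 18.88 kb, has 0.

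Among the core alpha genes, PSMA4 had the most sites of all members, 17 on chromosome 15 between 78540480 and 78549108, at 1.42 sites per kb. Of coding genes with a site, 89.0% had fewer. The sites of PSMA4 filled the 5' part of the gene, with 10 of 17 in its first 2300 nt, and 0 lay in its last 1000 nt. Their centres lay on bases 78, 611, 883, 1450, 1507, 1804, 2084, 2145, 2211, 2227, 4473, 4548, 5249, 8551, 8563, 8624 and 8702 of the span, with its first base counted as 1. The first 10 were thus followed by 3 sites, on bases 4473, 4548 and 5249, and by a last cluster of 4. The PSMA4 site nearest to the start is the one printed above; its centre lay on base 78 of the span and on base 39 counted from a listed start.

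PSMA7 had 7 sites on chromosome 20 at 1.05 per kb, the first centred on base 48 of the span and the last 99 nt before its end. PSMA1 had 6 sites on chromosome 11, and its last lay 73 nt before the end. PSMA3, PSMA5 and PSMA6 had 5 sites each and PSMA2 had 3. In PSMA5 the first site was centred on base 124, and the last 2 lay near the middle of its 27.4 kb. All 5 sites of PSMA6 also lay in the read-through gene PRORP-PSMA6, so they could not be assigned to PSMA6 alone. PSMA3 was the only member with sites on its other strand: it had 5 on the plus strand and 2 on the minus strand. Of the 5 plus-strand sites, 3 also lay within the span of the antisense gene PSMA3-AS1.

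The core beta genes include those with the protease activity: PSMB5 carries the chymotrypsin-like, PSMB6 the caspase-like and PSMB7 the trypsin-like site. These 3 genes held 15 sites with a median of 5 and the other 4 beta genes 31 with a median of 9, which were counts from 2 to 11 in the latter and 3 to 7 in the former. PSMB1 and PSMB2, which encode beta subunits without protease activity, had 11 sites each. The sites of PSMB1 spread over chromosome 6 from 170535176 to 170553142, that is over nearly the whole gene on the minus strand, with centres on bases 168, 2162, 4223, 4265, 7123, 7156, 7187, 9676, 16048, 17909 and 18130 of the span. Those of PSMB2 lay on chromosome 1 between 35603205 and 35641518, and 4 of the 11 were in the first 200 nt of its 41.99 kb span, centred on bases 11, 128, 134 and 176. The other 7 lay on bases 5111, 5201, 10189, 10230, 32181, 32218 and 38320, 6 of them in pairs less than 100 nt apart.

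PSMB4 and PSMB6 were the densest members, at 2.96 and 2.14 sites per kb. Both are short, at 2.37 and 2.33 kb, so that 7 and 5 sites sufficed. Of coding genes with a site, 95.5% were less dense than PSMB4 and 93.5% less dense than PSMB6. The 7 sites of PSMB4 lay on chromosome 1 between 151399597 and 151401870, and its first 2 were centred on bases 27 and 76. PSMB7 also had 7 sites, but over 61.98 kb on chromosome 9, with 4 of them in the first 3002 nt. PSMB5 had 3 sites, of which 2 lay 154 and 118 nt before its end, and PSMB3 had 2.

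The ATPase genes encode the ring that unfolds substrates. PSMC5 had 3 sites on chromosome 17 between 63827949 and 63831963, with centres on bases 521, 4091 and 4531 of its 4.59 kb span; PSMC4 had 2, PSMC3 and PSMC6 had 1 each, and PSMC1 and PSMC2 had 0. At 0.654 sites per kb the short PSMC5 was the densest of the class, and 81.1% of coding genes with a site were less dense. The ATPase genes are also the class with the most pseudogene copies in the table, 19 of the 42 named after members. None of the 42 held a site, and the share over all pseudogenes is not given here for comparison. How reads shared between a gene and its copies were treated is not given in the sources used here. Its part in the low counts of the ATPase genes was not tested. Of the 4 members without a site, PSMC1 has 13 copies, PSMC2 has 2, and PSMD1 and PSMD13 have 0.

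The 12 non-ATPase genes fall into the lid, which holds the deubiquitinase, and the subunits that sit with the ATPases in the base. The 8 lid genes held 22 sites, with a site in 7 of 8, and the 4 base genes held 6, with a site in 3 of 4. PSMD8, a lid subunit, had 8 sites on chromosome 19 between 38374823 and 38383754, more than any other regulatory gene and at 0.864 per kb. They were centred on bases 255, 1880, 4755, 6424, 7594, 7620, 8719 and 9182 of the span, with 6 of the 8 past the midpoint. PSMD3, another lid subunit, had 4, and PSMD6 and PSMD11 had 3 each. In PSMD6, 2 of the 3 lay within antisense genes, PSMD6-AS1 and PSMD6-AS2. PSMD14, the deubiquitinase of the lid, had 1 site in 103.3 kb, and its partner PSMD7 had 2 in 9.48 kb. PSMD12 had 1 and PSMD13 had 0.

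In the base, PSMD2, a scaffold that receives ubiquitin shuttle proteins, had 4 sites, all in the last 3251 nt of its 9.81 kb. The other large scaffold, PSMD1, had 0 in 115.96 kb. The ubiquitin receptors PSMD4 and ADRM1 had 1 site each, that of PSMD4 on base 29 and that of ADRM1 1220 nt before its end.

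**Figure D3:**
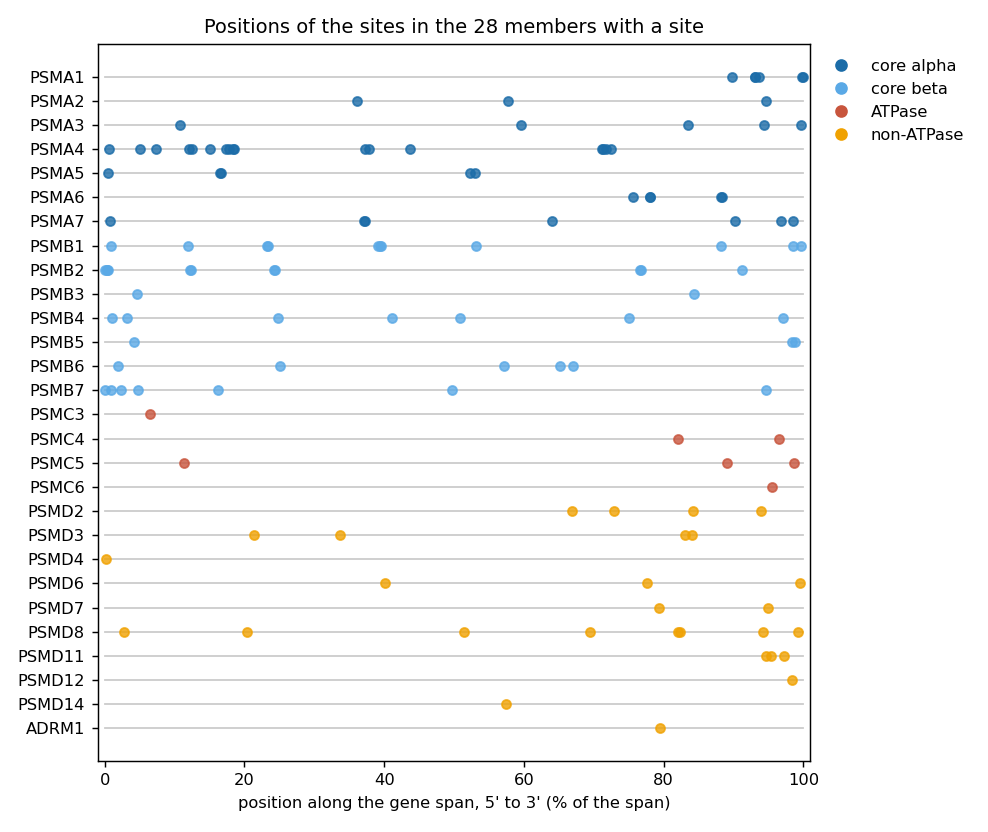
Position of each USP39 site along its gene span, from the 5' end (0%) to the 3' end (100%), for the 28 proteasome genes with a site; each dot is 1 of the 129 sites, coloured by class, and each line is 1 gene. Every core beta gene has a dot in its first 10%, while 27 of the 35 regulatory sites lie past the midpoint.

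Along the genes, a larger share of regulatory than of core sites lay past the midpoint of the span, a difference that was not tested. Of the 94 core sites 44 lay there (46.8%), against 27 of the 35 regulatory sites (77.1%). Over all nuclear protein-coding genes the share was 61.2%. All 6 sites of PSMA1 were among the 44 by its 138.8 kb span. Within the 15.5 kb from its listed start, they lay on bases 1379, 5901, 5931, 6733, 15161 and 15438. The median core site lay at 40.3% of the span and the median regulatory site at 82.1%. These values pool the sites of all genes, so genes with many sites weigh more. PSMA4 held 17 of the 94 core sites, 10 of them in the first 2300 nt of its 12.01 kb span. In the first 10% of the span lay 14 of 46 core beta sites (30.4%, exact 95% binomial interval 17.7% to 45.8%), with at least 1 in each of the 7 genes. Of these 14, PSMB2 and PSMB7 held 4 each, on the longest spans of the class, 41.99 and 61.98 kb. The share in the first 10% was 10.4% for core alpha (3.47% to 22.7%) and 8.57% for the regulatory genes (1.80% to 23.1%). It was 11.3% over all protein-coding genes. These intervals cover counting error only and treat sites as independent, which sites of 1 gene are not.

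In the last 10% lay 23.3% of all member sites (exact 95% binomial interval 16.3% to 31.5%), against 24.1% over all protein-coding genes. The share was 19.1% in core genes (11.8% to 28.6%) and 34.3% in regulatory genes (19.1% to 52.2%), so the intervals overlapped. PSMD11 had all 3 of its sites there, although its last site was still 1078 nt from the end. PSMA1 had 5 sites there, among them those 8778, 9580 and 9610 nt before the end of its 138.8 kb span. With spans cut at the listed start, the share over all members was 20.9%.

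A site lay within the first 200 nt of the span in 9 members, against 4.51% of all protein-coding genes. The 9 were PSMA4, PSMA5 and PSMA7 of the core alpha class, PSMB1, PSMB2, PSMB4, PSMB6 and PSMB7 of the core beta class, and PSMD4. Outside the 32, the lid gene SEM1 had 3 sites, all in the first 200 nt of its 228.2 kb span. Genes with more sites have more chances of such a site, so genes with 5 or more were also set side by side: 8 of the 11 core genes of that kind had one, against 34.6% of the 1781 protein-coding genes with 5 or more sites. The regulatory particle had only PSMD8 in that group, whose first site was centred on base 255.

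A site within the last 200 nt was found in 9 members as well, against 3.41% of all protein-coding genes. Of the 12 members with 5 or more sites, 6 had one, against 27.4% of such protein-coding genes. Those nearest to the end lay 73 nt before the end in PSMA1, 83 in PSMA3, 99 in PSMA7, 58 in PSMB1, 69 in PSMB4, 118 in PSMB5, 58 in PSMC5, 67 in PSMD6 and 72 in PSMD8. In 3 genes, PSMA7, PSMB1 and PSMB4, both the first and the last 200 nt held a site. Exons were not known here, so untranslated regions, coding exons and introns could not be separated.

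**Figure D4:**
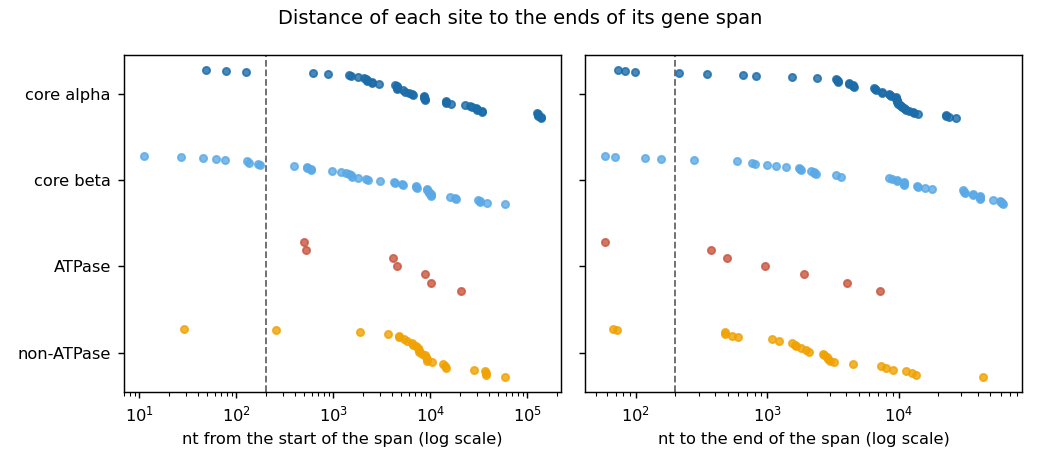
Distance of each USP39 site from the start (left) and to the end (right) of its gene span, in nt on log axes, by subunit class; each dot is 1 site, dots of a class are spread vertically in order of distance, and the dashed lines mark 200 nt. Within 200 nt of the start lie 12 core sites and 1 regulatory site, and within 200 nt of the end 7 and 3.

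Another site of the same gene was found within 50 nt for 32 of the 129 sites (24.8%, exact 95% binomial interval 17.6% to 33.2%), against 34.0% over all protein-coding genes. Of these 32, 30 were core sites and 2, both in PSMD8, were regulatory. PSMB2 had 7 such sites, PSMB1 had 5 and PSMA4 had 4. The closest pairs had centres 6 nt apart, in PSMA7 and in PSMB2, so that a single base lay between the sites. A gene with 1 site cannot have a neighbour, and 6 regulatory genes and 0 core genes had 1 site, so these shares follow the number of sites as well.

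Other genes of the pathway had a site in 17 of 31 cases and 96 sites in all, where 23.1% of all protein-coding genes had one. They were taken from lists, which were chosen with earlier results of these data known. None of the 5 subunits that replace or vary core subunits in immune cells or germ cells and thymus (PSMB8, PSMB9, PSMB10, PSMB11 and PSMA8) had a site, which is near that background for so short a list. Of the activators and the inhibitor, 4 of 5 had a site: PSME3, the nuclear activator, had 12, PSME4 had 7 and the inhibitor PSMF1 had 6. Of the assembly chaperones, 4 of 9 had a site, with 6 each in POMP, which helps the core mature, and PSMG3, and 4 in PSMG4. Among receptors, shuttles and deubiquitinases, 7 of 9 had a site, among them the shuttle gene RAD23B with 16 and the deubiquitinase gene UCHL5 with 4. In the list around NFE2L1, the transcription factor of proteasome genes, VCP, the ATPase that extracts ubiquitylated proteins, had 15 sites and NFE2L1 itself 2, while NGLY1 had 0.

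Counts in other complexes show the range. All 8 genes of the CCT chaperonin, a ring that folds actin and tubulin, had a site, with a median of 22.5 per gene and 1.41 sites per kb, above each of the 4 proteasome classes. The 13 eIF3 genes, of a translation initiation complex whose core is related in structure to the lid, had a median of 11 sites and 0.367 per kb, with a site in 11. The 10 genes of the COP9 signalosome, also related to the lid, had a median of 1.5 and 0.0864 per kb, with a site in 7. The non-ATPase genes of the proteasome had the same median of 1.5. These 3 lists were added after the other counts had been seen, and no difference between lists was tested.

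**Figure D5:**
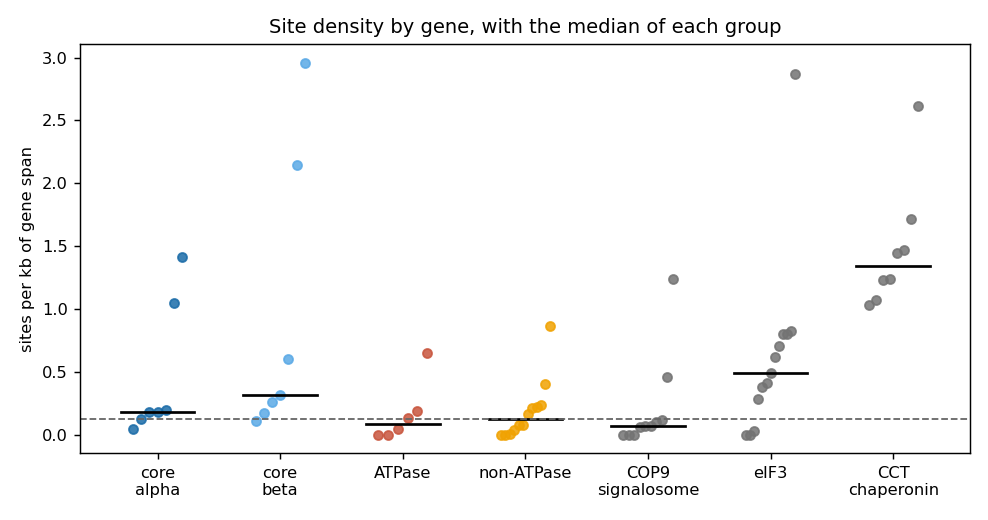
USP39 sites per kb of gene span (vertical axis) for each gene of the 4 proteasome classes, the COP9 signalosome, eIF3 and the CCT chaperonin. Dots are genes, and black bars are the median of each group, with genes at 0 included. The dashed line marks 0.127, the median of all protein-coding genes with a site, so genes at 0 are left out of it. Over genes with a site only, the median was 0.160 in the ATPase class and 0.189 in the non-ATPase class. The median core beta gene stands at 0.320 and the median core alpha gene at 0.184, while the median CCT gene stands at 1.34.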

How the data were processed

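The deposited file is a BED list of USP39 sites. Per the submitters' processing notes the build was GRCh38.p12, and these notes also name UMI-tools 1.1.2, STAR 2.7.3a, bedtools 2.29.2, SAMtools 1.10 and FastQC 0.11.9, without roles. The score that the authors deposited is 0 for all 34781 sites. How sites were called and filtered, and from which libraries, is not given in the sources used here. Gene names, spans and listed transcript starts came from RefSeq tables of GRCh38.p14; the patch differs, so no coordinates of genes are printed, and printed positions are those of the sites, with the first base counted as 1. Of the 32 members, 27 had an entry in the promoter table.

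A site within overlapping genes counted for each of them. Where both strands held the same number, the annotated strand was used. The main strand was the annotated one in 94.4% of 3890 protein-coding genes. Alternatives tried were the strand, overlaps, joined sites, the base that places a site, the minimum of 3 sites, the end zone, the weight of genes and the neighbour distance. Sequences at sites were planned for a genome, and the promoter table was used in its place, for 5 sites; exons and splice sites were not analysed here. Members and lists were chosen with earlier results of these data known. Every member is named; full positions are given for members with 10 or more sites and the highest of each class, and 2 to 4 genes of each other list, except that a gene the rule would name is not reported here. Positions of other members and the lid, base and protease groups were chosen after values were seen. The placing of sites was tested on simulated data. Software was Python 3.11.15, matplotlib 3.10.9, scipy 1.17.1, pandas 2.3.3 and numpy 2.4.6.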

Additional observations from a re-analysis of the deposited data

How the results depend on the processing

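No paired analysis was possible because the merged list has no values per library; for the same reason no library could be left out, and a stricter site threshold could not be tried on a score of 0. Under the alternatives for strand, overlapping genes, joined sites and the placing base, members with a site numbered 27 or 28 and their sites 112 to 131, and the core over regulatory ratio of sites per kb was 2.58 to 3.08. With at least 3 sites required, 19 members remained. The ratio was 3.45 per gene. Under choices made after seeing the data, it was 2.19 for the median gene, 2.55 without PSMA4 and 4.51 with spans cut at listed starts. With cut spans core alpha genes had 0.371 sites per kb in place of 0.180, because the span of PSMA1 shrank. The cut left PSMD1 at 115.96 kb and PSMD14 at 103.3 kb, and a ratio without these genes was not computed. The share of sites with a neighbour was 7.75% within 20 nt and 34.1% within 100 nt, in place of 24.8% within 50 nt; over all protein-coding genes it was 21.4% and 45.8%. The mean of each gene's own share in the last 10% was 29.95%, against 27.5% over all protein-coding genes. In the last 1000 nt lay 19.4% of sites, against 14.5% over all protein-coding genes. Leaving out sites shared with another gene removed 11 sites in 4 members, all 5 of PSMA6 among them. The unknown read depth limits what a count of 0 can show.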

Other observations

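Sites just beyond the spans of the members were counted on the members' strands. In the 1000 nt past the end, 0 sites were found over the 32 genes. In the 1000 nt before the start there were 2, 1 each at PSMA2 and PSMB4. The same counts were not made over all protein-coding genes, so whether these are low is not known.

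The table names 42 pseudogenes after 18 of the members: 11 after core alpha genes, 3 after core beta genes, 19 after ATPase genes and 9 after non-ATPase genes. None of them held a site on either strand. The share of all pseudogenes with a site is not given here, so whether this is unusual is not known. Among the ATPase genes, PSMC1 had 13 copies and 0 sites, PSMC2 2 and 0, PSMC6 3 and 1, and PSMC3 1 and 1. PSMC4 and PSMC5 had 0 copies, with 2 and 3 sites. PSMD1 and PSMD13 had 0 copies and 0 sites. PSMA6 and PSMD7, with 4 copies each, had 5 and 2 sites. The part of the copies in the site counts was not tested.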
